A study of Mus musculus with 6 samples.

Results

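The immediate-early response genes described here are Fos, Fosb, Jun, Junb, Egr1, Atf3, Ier2, Nr4a1, Dusp1 and Zfp36, which are 10 of the 26110 genes listed in the bulk RNA-seq data. They were chosen by gene symbol from a list of known immediate-early genes, and all 10 were found and passed the filter on low values. The choice was made with earlier results of these data known, so that comparisons with all genes are descriptions. RNA was sequenced from MHCIIhi cells sorted for presence or absence of CX3CR1 from the muscularis externa (ME), the muscle coat of the small bowel, with 3 CX3CR1- and 3 CX3CR1+ libraries. All libraries came from naive, untreated mice of genotype CX3CR1+/GFP on a C57BL/6 background, in which GFP replaces one Cx3cr1 allele and serves as the sort marker, so that the comparison is between populations and not between treatments. The tissue of several mice was pooled, and whether each library had a pool of its own is not stated. The p-values therefore measure the spread between libraries, which may be technical. The sample labels call the cells dendritic cells, whereas the study calls them macrophages.

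Immediate-early genes are transcribed within minutes of a signal, because their induction needs no new protein. Growth factors, cytokines, microbial products and stress reach them through MAP kinases and through factors such as SRF, CREB and NF-κB, and most of their transcripts are short-lived. FOS and JUN proteins pair to form the transcription factor AP-1, EGR1 and NR4A1 are DNA-binding factors of their own, and DUSP1 and ZFP36 close the loop, the former by removing phosphate from MAP kinases and the latter by promoting decay of unstable mRNAs. In tissue macrophages the group is known both from inflammatory activation and from the handling of cells: enzymatic digestion of tissue is a known trigger. The ME was digested with collagenase and dispase in a warm water bath before the sort. No undigested tissue was among the libraries, so that levels in the tissue and levels gained during isolation cannot be told apart.

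The stretches before the transcription start of members are shown because they carry short motifs through which immediate-early genes are known to be induced. RefSeq (GRCm38.p6) gave a promoter for 8 of the 10 members, and none was read for Egr1 and Ier2. In the 250 bases before the start, TGACG, the core of the site bound by CREB and ATF proteins, occurred on either strand in 6 of the 8 members, against 17.8% of 32851 promoters of the same length. The complete palindrome TGACGTCA, which contains TGACG on both strands, occurred in Dusp1 and in 1.55% of all promoters. A CArG box, the motif bound by SRF, occurred within these 250 bases in Zfp36 and in 1.47% of all promoters. Sequence outside these 250 bases was not searched, so that motifs of the members lying there would be missed. TGACG and CArG matches are in capitals, and each line is written 5′ to 3′ on the strand of its gene.
Fos: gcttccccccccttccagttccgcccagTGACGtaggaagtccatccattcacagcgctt
Fosb: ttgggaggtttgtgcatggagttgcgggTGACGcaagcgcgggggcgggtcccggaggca
Junb: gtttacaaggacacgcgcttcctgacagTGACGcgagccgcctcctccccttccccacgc
Nr4a1: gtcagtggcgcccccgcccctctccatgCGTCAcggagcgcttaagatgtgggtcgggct
Dusp1: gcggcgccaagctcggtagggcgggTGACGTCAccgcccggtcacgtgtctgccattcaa
Atf3: attaatagcattaCGTCAgc
Zfp36: ccgccCCATAAAAGGagaaa

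These windows lie at chr12:85473796-85473855 (plus strand) for Fos, chr7:19310074-19310133 (minus) for Fosb, chr8:84978823-84978882 (minus) for Junb, chr15:101266778-101266837 (plus) for Nr4a1, chr17:26508581-26508640 (minus) for Dusp1, chr1:191183334-191183353 (minus) for Atf3 and chr7:28379272-28379291 (minus) for Zfp36. In GENCODE the first 3 are upstream of the gene. The windows of Nr4a1 and Dusp1 fall in an intron of a longer transcript. Those of Atf3 and Zfp36 were cut short because a longer stretch around the match touched an annotated exon of the same gene. The TGACG of Fos printed in capitals began 66 bases before the start, that of Fosb 60 bases and that of Junb 106 bases. A second TGACG of Fos lay 129 bases before the start, and a TATAAA lay 33 bases before it. TATAAA was found in 12.4% of all promoters. The AP-1 motif TGANTCA occurred in none of the 8 windows and in 6.75% of all promoters. The EGR motif GCGNGGGCG occurred in Fosb, Nr4a1 and Zfp36 and in 4.70% of all promoters. The matches describe letters in these promoters, in part outside the printed windows, and do not show binding.

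The libraries held between 5346381 and 17616761 reads assigned to genes, estimated from the smallest step of the normalised values, and the depths of the populations overlapped. At this depth 3 reads, taken as the limit of detection, corresponded to a normalised value between 1.39 and 5.36. The lowest member value in any library was 191, for Ier2, so that counting noise was small for every member. Cx3cr1 itself reached 371, 380 and 347 in the CX3CR1+ libraries against 23.2, 18.9 and 28.5 in the CX3CR1- libraries, in the direction of the labels. The share of mitochondrial genes was 19.6 ± 1.55% (SD, n = 3) for the CX3CR1+ libraries and 51.7 ± 3.76% (SD, n = 3) for the CX3CR1- libraries. All 10 macrophage markers, such as Adgre1, Csf1r and C1qa, were above the limit of detection in every library, and all 10 were lower in the CX3CR1- libraries.

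The 10 genes summed to a normalised value of 67502 ± 2924 (SD, n = 3) for CX3CR1- cells and of 125721 ± 1735 (SD, n = 3) for CX3CR1+ cells. As a share of the normalised total without mitochondrial genes, they made up 1.96 ± 0.0754% (SD, n = 3) for CX3CR1+ and 1.19 ± 0.124% (SD, n = 3) for CX3CR1- cells. In bulk RNA, fewer cells that express a gene and less RNA per cell cannot be told apart. The sum is carried by Zfp36, Dusp1 and Egr1, and the single genes did not move alike. Atf3, Zfp36 and Junb were lower in CX3CR1- cells by at least 1 on the log2 scale, Dusp1 was lower by less than that, Fosb was higher, and Fos, Jun, Egr1, Nr4a1 and Ier2 did not pass the test. Genes were called when their log2 fold change (log2FC) reached 1 in either direction with a limma p, adjusted by Benjamini-Hochberg over all 17812 tested genes, of no more than 0.05, and a negative log2FC means a lower value in CX3CR1- cells. By this rule 3 of the 10 members were called lower, against 8.15% of all tested genes, and 0 were called higher, against 12.2%. At an unadjusted limma p of at most 0.05, 6 members were lower, against 16.8% of all genes, and 2 were higher, against 18.6%. Without the fold threshold, 4 members were lower, against 11.0% of all genes, and 1 was higher, against 13.3%. The values of 5 members did not overlap and were lower in CX3CR1-, against 19.8% of all genes, and those of 2 members did not overlap and were higher, against 20.3%. The median log2FC was -0.50 over the 10 members and -0.0035 over all tested genes.

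**Figure D1:**
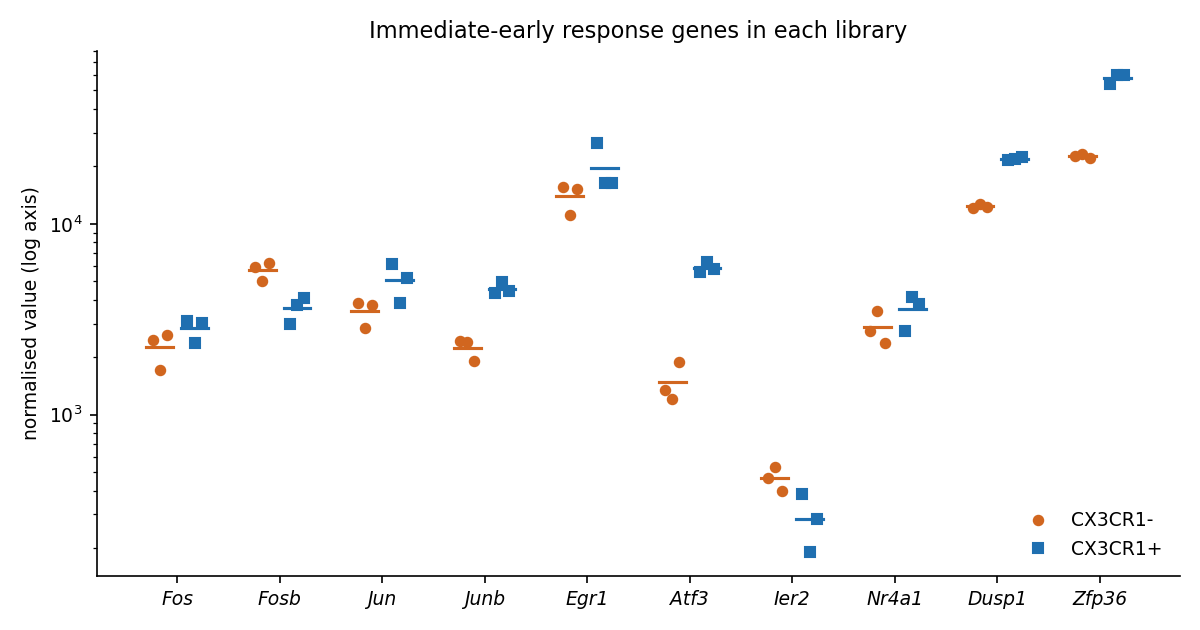
Normalised value (log axis) of the 10 immediate-early response genes in the 3 CX3CR1- libraries (orange circles) and the 3 CX3CR1+ libraries (blue squares); horizontal lines are group means. The groups of Atf3, Junb, Dusp1 and Zfp36 are clearly apart with CX3CR1+ above, those of Fosb are apart with CX3CR1- above, and those of Fos, Jun and Nr4a1 overlap.

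In the Fos family, Fosb passed the adjusted p and Fos did not. Fos, the classical partner of JUN in AP-1 (GRCm38, chr12:85473890-85477273, plus strand, ENSMUSG00000021250.13), had normalised values of 2467, 1718 and 2618 in the CX3CR1- libraries and of 3105, 2369 and 3020 in the CX3CR1+ libraries. The groups overlapped, and CX3CR1- replicate 2 was the lowest of all. The log2FC was -0.33 (standard error [SE] 0.19, 95% confidence interval -0.77 to 0.10, adjusted p = 0.253), so that a difference of up to 0.77 on the log2 scale is within the interval, and its sign turned under quantile normalization.

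Fosb, a paralog of Fos whose protein also pairs with JUN proteins (chr7:19302696-19310051, minus strand, ENSMUSG00000003545.3), was at 5960, 5010 and 6232 in CX3CR1- and at 2988, 3750 and 4102 in CX3CR1+ libraries. Every CX3CR1- library was above every CX3CR1+ library. The log2FC of 0.67 (SE 0.16, 95% confidence interval 0.31 to 1.03, adjusted p = 0.0124) passed the adjusted p but not the fold threshold. The adjusted p was 0.0509 without CX3CR1+ replicate 1 and 0.105 without the trend in the variance prior.

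Within a library, the value of Fosb relative to that of Fos depends neither on depth nor on the scaling between libraries. The ratio of Fosb to Fos was 2.42, 2.92 and 2.38 in CX3CR1- and 0.962, 1.58 and 1.36 in CX3CR1+ libraries. The lowest CX3CR1- ratio was above the highest CX3CR1+ ratio, with a mean difference of 1.01 on the log2 scale. The exact permutation test gave p = 0.1, which is the smallest value that 3 libraries against 3 allow.

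In the Jun family, Junb was called and Jun was not. Junb, an AP-1 subunit that can replace JUN in the dimer (chr8:84974484-84978718, minus strand, ENSMUSG00000052837.6), was at 2426, 2400 and 1911 in CX3CR1- and at 4346, 4933 and 4436 in CX3CR1+ libraries. The groups did not overlap and the mean was 2.04-fold higher in CX3CR1+ cells. The log2FC was -1.03 (SE 0.15, adjusted p = 7.07e-04), which lies at the fold threshold: it was -0.92 without CX3CR1- replicate 3, -0.98 without CX3CR1+ replicate 2, -0.86 with mitochondrial genes left out of the scaling and -0.55 after quantile normalization, each with an adjusted p under 0.05.

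Jun, the main partner of FOS (chr4:95049034-95052222, minus strand, a gene of 1 exon), was at 3867, 2849 and 3769 in CX3CR1- and at 6163, 3826 and 5227 in CX3CR1+ libraries. The groups overlapped only through CX3CR1- replicate 1 and CX3CR1+ replicate 2, whose values were nearly equal. Jun had a log2FC of -0.52 (95% confidence interval -0.96 to -0.08, adjusted p = 0.0847).

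Junb and Jun both overlap transcripts of the opposite strand, and the library kit does not mark strand. Of the 31-mers of Junb, 6.52% also occur in Prdx2, and of those of Jun, 6.39% also occur in the antisense gene Junos. Pseudoalignment can divide the reads of such stretches between the genes.

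Atf3 differed most among the 10 genes. Its protein belongs to the ATF and CREB family, is induced by many stresses and is known to dampen cytokine transcription in macrophages. Atf3 (chr1:191170296-191218039, minus strand, ENSMUSG00000026628.13) was at 1340, 1205 and 1877 in CX3CR1- and at 5570, 6288 and 5796 in CX3CR1+ libraries. The highest CX3CR1- value lay well under the lowest CX3CR1+ value, and the mean was 3.99-fold higher in CX3CR1+ cells. This is a log2FC of -2.02 (SE 0.18, 95% confidence interval -2.42 to -1.62, adjusted p = 3.37e-05).

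Egr1, a zinc finger factor that is induced through SRF (ENSMUSG00000038418.7), was at 15655, 11169 and 15250 in CX3CR1- and at 26481, 16336 and 16306 in CX3CR1+ libraries. The groups did not overlap, but CX3CR1+ replicates 2 and 3 were close to the highest CX3CR1- library and CX3CR1+ replicate 1 stood well above them. The log2FC was -0.47 (SE 0.21, adjusted p = 0.138), and it was -0.24 without CX3CR1+ replicate 1.

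Nr4a1, an orphan nuclear receptor whose activity is set largely by its own transcription (chr15:101254269-101274795, plus strand), was at 2731, 3496 and 2381 in CX3CR1- and at 2757, 4137 and 3820 in CX3CR1+ libraries. The ranges overlapped over most of their length. For Nr4a1 the log2FC was -0.31 (95% confidence interval -0.75 to 0.13, adjusted p = 0.297), and its sign turned under quantile normalization.

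Ier2, which encodes a small nuclear protein (chr8:84661331-84662852, minus strand, 1 exon), was the lowest of the 10 members. It was at 465, 531 and 400 in CX3CR1- and at 382, 191 and 283 in CX3CR1+ libraries. The groups were just apart, and the CX3CR1+ libraries differed among themselves by a factor that made the log2FC of 0.75 (SE 0.27, adjusted p = 0.0664) miss the threshold. Without CX3CR1+ replicate 2, the lowest library, the log2FC was 0.49, and without CX3CR1+ replicate 1, the highest, it was 0.99 (adjusted p = 0.0342). Its adjusted p was also under 0.05 with mitochondrial genes left out of the scaling (0.0294) and after quantile normalization (0.0426).

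The feedback genes Dusp1 and Zfp36 were among the members with the highest values and varied little between libraries. Dusp1, the phosphatase that switches off p38 and JNK (chr17:26505590-26562128, minus strand, ENSMUSG00000024190.7), was at 12105, 12619 and 12235 in CX3CR1- and at 21634, 21866 and 22293 in CX3CR1+ libraries. The groups were far apart relative to their spread, with a mean 1.78-fold higher in CX3CR1+ cells. The log2FC of -0.83 (SE 0.11, adjusted p = 4.27e-04) was under the fold threshold.

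Zfp36, which encodes tristetraprolin, a protein that binds AU-rich elements and recruits the mRNA decay machinery (chr7:28376784-28380253, minus strand, ENSMUSG00000044786.6), was at 22526, 23155 and 22136 in CX3CR1- and at 54165, 60469 and 60124 in CX3CR1+ libraries. The CX3CR1- values differed little from each other, and all lay under every CX3CR1+ value. The mean was 2.58-fold higher in CX3CR1+ cells (log2FC -1.36, SE 0.11, adjusted p = 2.02e-05). Zfp36 overlaps the antisense gene Gm44710, in which 2.77% of its 31-mers occur. Counted over all other genes, 6.57% of its 31-mers occur elsewhere.

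**Figure D2:**
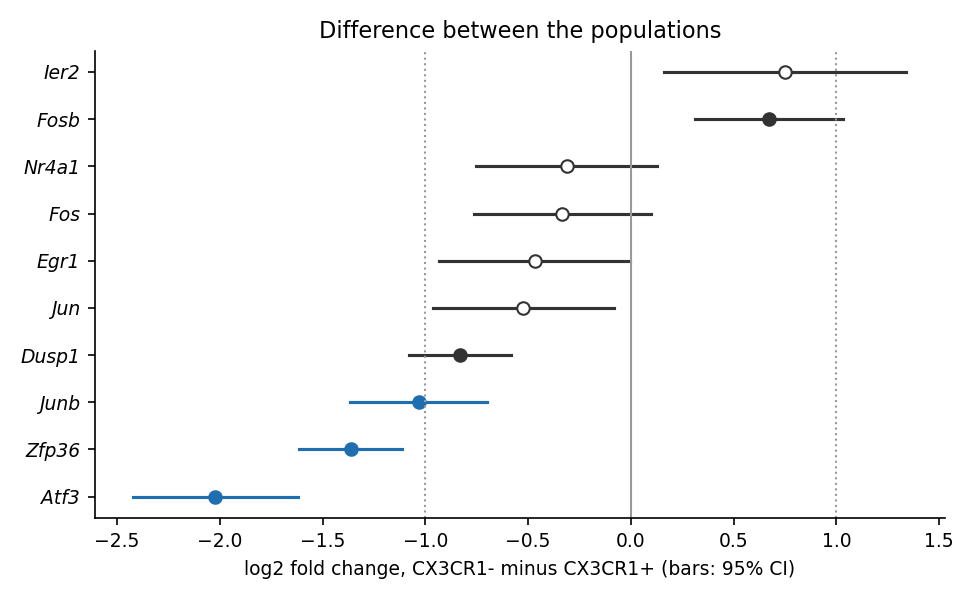
Log2 fold change (CX3CR1- minus CX3CR1+, log2(value + 1) scale) of each member with its 95% confidence interval from limma; filled symbols have an adjusted p of at most 0.05, blue symbols also pass the fold threshold of 1 (dotted lines). Atf3, Zfp36 and Junb are called lower in CX3CR1- cells, Dusp1 is lower under the fold threshold, and Fosb is the filled symbol above 0.

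To compare genes with each other, the normalised values were divided by the length of the longest coding transcript. On this scale, Zfp36 was the highest member with a level per kilobase of 8102 ± 184 (SD, n = 3) for CX3CR1- and of 20879 ± 1270 (SD, n = 3) for CX3CR1+ cells. It ranked between 47 and 49 in the CX3CR1- libraries and between 21 and 26 in the CX3CR1+ libraries among 17038 tested genes with a known length. Dusp1 came next at 6191 ± 134 (SD, n = 3) and 11021 ± 168 (SD, n = 3) per kilobase, and Egr1 followed at 3128 ± 553 (SD, n = 3) and 4395 ± 1308 (SD, n = 3). Each of these 3 genes was above the next one in every library of its population.

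Below them the order differed between the populations. In CX3CR1- cells, Fosb was the fourth at 1516 ± 170 (SD, n = 3) per kilobase, followed by Junb, Nr4a1, Jun, Fos and Atf3, and each neighbouring pair among these overlapped between libraries. In CX3CR1+ cells, Atf3 was the fourth at 2966 ± 185 (SD, n = 3) per kilobase and Junb the fifth at 2527 ± 175 (SD, n = 3), without overlap between them or with the next gene, whereas the neighbouring levels of Jun, Nr4a1 and Fos overlapped. Fosb was the ninth in CX3CR1+ cells at 955 ± 151 (SD, n = 3) per kilobase, and Atf3 was the ninth in CX3CR1- cells at 743 ± 179 (SD, n = 3). Ier2 was the last in both, at 306 ± 43.1 (SD, n = 3) and 187 ± 62.6 (SD, n = 3) per kilobase. Even so, it ranked no lower than 2567 of the 17038 genes in any library.

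The members were then compared within each library, as the log2 ratio of a member to the mean log2 value of the 10 members. This removes the scaling between libraries. On this measure, CX3CR1- libraries exceeded CX3CR1+ libraries by 1.30 for Ier2 and by 1.22 for Fosb. Atf3 was lower by 1.47, Zfp36 by 0.82, Junb by 0.49 and Dusp1 by 0.29 on the log2 scale. The groups of these 6 genes did not overlap, each with an exact permutation p of 0.1, the smallest possible. The ratio is defined for the members only, so that this count has no share over all genes beside it. On the normalised values themselves, 20.3% of all tested genes did not overlap and were higher in CX3CR1-, and 19.8% did not overlap and were lower. The ratios of Jun and Egr1 differed between the populations by 0.02 and 0.08, those of Fos and Nr4a1 by 0.21 and 0.23, and all 4 overlapped. Since the ratios of a library sum to 0, a higher ratio of one member requires a lower ratio of others.

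**Figure D3:**
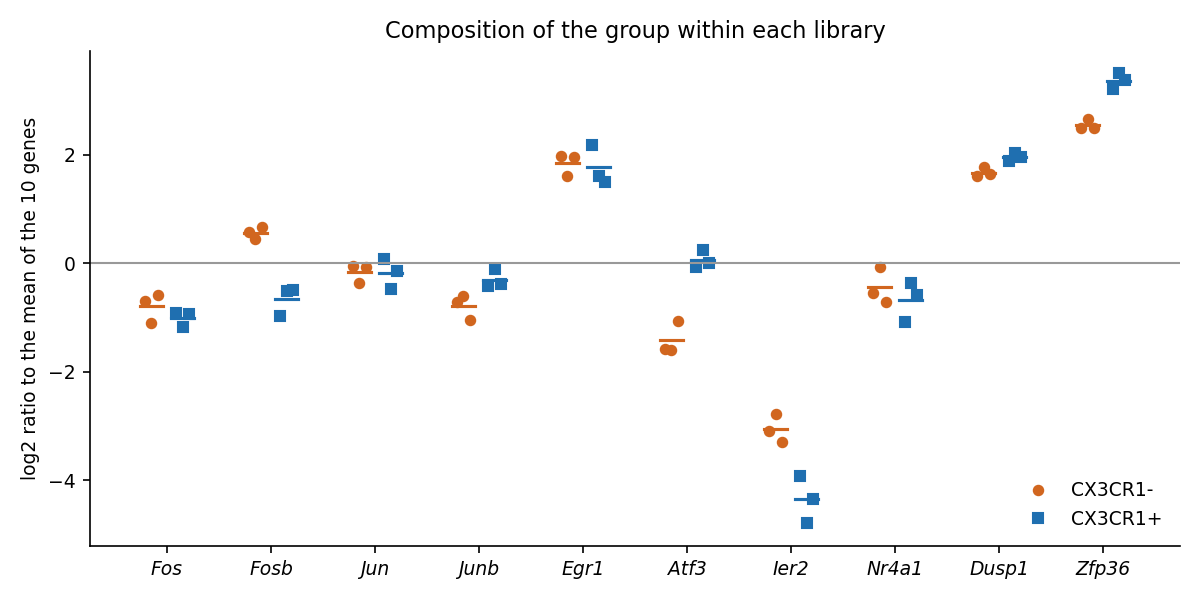
Log2 ratio of each member to the mean log2 value of the 10 members of the same library, for CX3CR1- (orange circles) and CX3CR1+ libraries (blue squares), with group means as lines. The ratios of Fosb and Ier2 are higher in CX3CR1- cells and those of Atf3, Zfp36, Junb and Dusp1 are lower. Jun and Egr1 sit at about the same height in both.

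Pairs of members were compared in the same way. The ratio of Zfp36 to Dusp1 was 1.86, 1.83 and 1.81 in CX3CR1- and 2.50, 2.77 and 2.70 in CX3CR1+ libraries. The ratio of Atf3 to Jun was 0.346, 0.423 and 0.498 in CX3CR1- and 0.904, 1.64 and 1.11 in CX3CR1+ libraries. Neither pair overlapped between the populations (exact permutation p = 0.1). The ratio of Fos to Jun, the classical AP-1 pair, lay between 0.603 and 0.694 in CX3CR1- and between 0.504 and 0.619 in CX3CR1+ libraries, which overlapped (exact permutation p = 0.2).

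Members also varied between libraries of the same population, and not in one direction. The SD of log2(value + 1) over 3 libraries was lowest for Dusp1, at 0.0311 in CX3CR1- and 0.022 in CX3CR1+ cells. The SD of Zfp36 was 0.0327 and 0.0894. It was 0.329 and 0.215 for Fos, 0.271 and 0.403 for Egr1, and 0.204 and 0.498 for Ier2. The median SD of the 10 members was 0.225 in both populations, against 0.469 in CX3CR1- and 0.296 in CX3CR1+ libraries over all tested genes, most of which are lower in level.

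Replicate 2 of each population was the one in which Fos and Jun were lowest. Fos deviated from its population mean by -0.38 in CX3CR1- replicate 2 and by -0.25 in CX3CR1+ replicate 2 on the log2 scale. For Jun the deviations were -0.28 and -0.38. Nr4a1 was highest in these libraries, with deviations of 0.30 and 0.23. Egr1 was lowest in CX3CR1- replicate 2, at -0.31, whereas in CX3CR1+ cells replicates 2 and 3 lay together at -0.23 and replicate 1 at 0.47. The libraries with the lowest Fos and Jun were therefore not low in every member, and CX3CR1- replicate 2 held the lowest value of 5 of the 10 members and the highest value of 4.

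**Figure D4:**
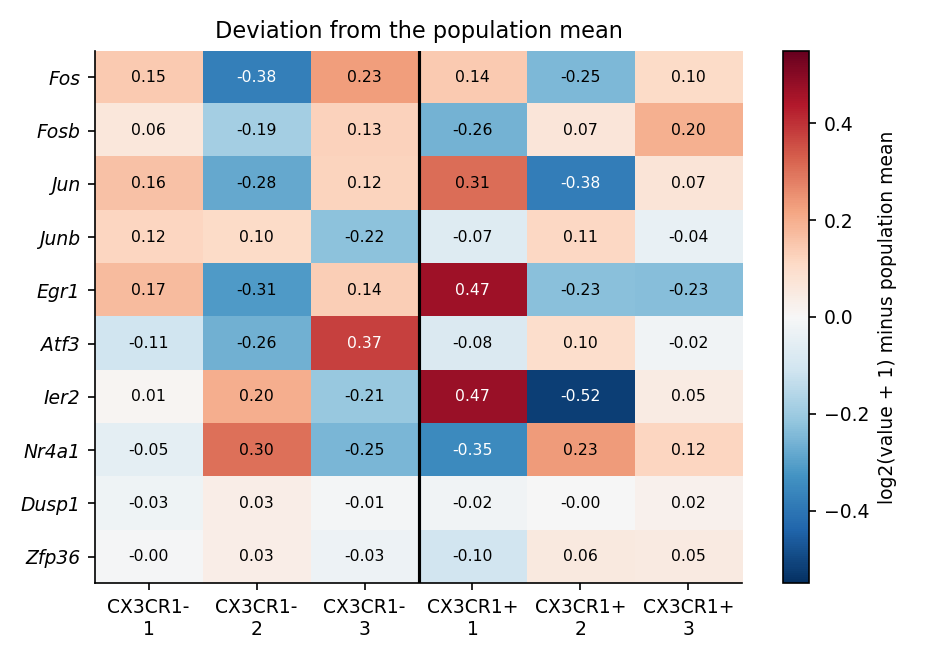
Deviation of each member's log2(value + 1) from the mean of its population, for the 3 CX3CR1- and 3 CX3CR1+ libraries (red above, blue below the mean). Fos and Jun are blue and Nr4a1 is red in replicate 2 of both populations, and the rows of Dusp1 and Zfp36 are nearly white.

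The genes whose pattern over the 6 libraries was most like that of Fos were ranked by Pearson's r of log2(value + 1) among 17811 genes, as a description only, since the libraries form 2 groups and share preparation and depth. Outside the members these were Yipf5, a protein of transport between ER and Golgi, Gm10295, AC131743.5, Chordc1, a partner of the chaperone HSP90, and Gm10069, with r between 0.984 and 0.996. Yipf5 was at 96.0, 85.8 and 98.7 in CX3CR1- and at 106, 96.0 and 103 in CX3CR1+ libraries, so that it followed Fos with a much smaller amplitude. Chordc1 was at 293, 198 and 326 in CX3CR1- and at 376, 285 and 338 in CX3CR1+ libraries. Among the members, Jun had rank 74 (r = 0.93) and Egr1 rank 568 (r = 0.82), whereas Fosb had rank 13050 (r = -0.41). Within the CX3CR1- libraries, Fosb was ordered as Fos, with replicate 3 highest and replicate 2 lowest. Within the CX3CR1+ libraries the orders differed. There Fosb was highest in replicate 3 and lowest in replicate 1, whereas Fos was highest in replicate 1 and lowest in replicate 2.

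The remaining genes of the same families and pathways came from hand-written lists, chosen with earlier results of these data known. They are given by counts of called genes. In all, 103 of 109 such genes were tested. Of these, 11 were called higher in CX3CR1- cells, against 12.2% of all tested genes, and 25 lower, against 8.15%. The same shares of all tested genes apply to the counts of each list below. Of 10 other AP-1 subunits, 1 was called higher and 3 lower, with a median log2FC of -0.44. The higher call was lost without CX3CR1+ replicate 1 or 3, and 1 was called lower without CX3CR1- replicate 1 or without CX3CR1+ replicate 2. Fosl1, a Fos paralog, was the higher one (log2FC 2.07, adjusted p = 0.0204) from values of 34.4, 19.7 and 69.8 in CX3CR1- and 6.94, 9.84 and 7.08 in CX3CR1+ libraries, which is a low level. The small MAF factors Mafg (-1.57) and Maff (-1.05) and the factor Batf (-1.33) were called lower. Its paralog Batf3 went the other way, with every CX3CR1- library above every CX3CR1+ library. The log2FC of Batf3 was 1.01 (adjusted p = 0.0506), which was not called. Jund, which is known for steady expression, had a log2FC of 0.02 (95% confidence interval -0.40 to 0.45), and Fosl2 one of -0.21 (-0.71 to 0.29).

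Of the other EGR and NR4A genes, 1 of 6 tested was called. Nr4a2, a nuclear receptor related to Nr4a1, was called higher in CX3CR1- cells with values of 1405, 1608 and 1694 against 331, 571 and 566 in CX3CR1+ libraries, a log2FC of 1.72 (SE 0.23, adjusted p = 4.22e-04). Nr4a3, with means of 4783 ± 695 (SD, n = 3) for CX3CR1- and 2952 ± 907 (SD, n = 3) for CX3CR1+ cells, was higher by 0.74 (adjusted p = 0.043), under the fold threshold. The ratio of Nr4a2 to Nr4a1 was 0.515, 0.460 and 0.711 in CX3CR1- and 0.120, 0.138 and 0.148 in CX3CR1+ libraries (exact permutation p = 0.1). Egr2 and Egr3 had log2FCs of -0.12 and 0.24 with adjusted p-values of 0.886 and 0.704, and Egr4, which was not tested, was above the limit of detection in 1 library. None of the 6 tested genes of this list was called lower, against 8.15% of all tested genes. At an unadjusted limma p of at most 0.05, 0 were lower, against 16.8% of all genes. With 6 genes, such counts do not set the list apart from all genes.

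Among 29 other early response genes, 5 were called higher and 8 lower in CX3CR1- cells. Without CX3CR1- replicate 2, 3 were called higher, and after quantile normalization 4 were called lower. The 3 lower genes with the smallest adjusted p were Rhob, a small GTPase (-2.17, adjusted p = 1.06e-05), Ier3, a survival factor induced by NF-κB (-2.69, adjusted p = 2.98e-05) and Plk3, a stress-responsive kinase (-2.09, adjusted p = 4.44e-05). Ier3 was at 525, 565 and 932 in CX3CR1- and at 3874, 5179 and 3712 in CX3CR1+ libraries. The 3 higher genes with the smallest adjusted p were Cyr61, a matricellular protein typical of fibroblasts (2.01, adjusted p = 0.00103), and the Krüppel-like factors Klf4 and Klf2 (1.24, adjusted p = 0.00754). The mean of Klf4 was 2.01-fold higher (adjusted p = 0.00151), which lies at the fold threshold.

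The feedback genes were followed in their families. Of 8 other MAP kinase phosphatases tested, 4 were called lower and 1 higher, and 2 were called lower without CX3CR1+ replicate 2 or 3. Dusp2 (-1.33), Dusp6 (-1.24), Dusp8 (-1.67) and Dusp16 (-1.02) were lower in CX3CR1- cells, whereas Dusp5, a nuclear phosphatase of ERK, was at 274, 313 and 422 in CX3CR1- and at 44.9, 76.3 and 76.5 in CX3CR1+ libraries, a log2FC of 2.35 (adjusted p = 2.82e-04). Dusp4 (1.15), Dusp7 (0.30) and Dusp10 (0.74) were not called.

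Of the paralogs of Zfp36, Zfp36l1 was called lower, at 2465, 2217 and 2495 in CX3CR1- against 6463, 5069 and 5552 in CX3CR1+ libraries (log2FC -1.25, adjusted p = 1.77e-04), a call that was lost after quantile normalization. Zfp36l2 had a log2FC of -0.46 (adjusted p = 0.0732). The ratio of Zfp36 to Zfp36l1 lay between 8.87 and 10.4 in CX3CR1- and between 8.38 and 11.9 in CX3CR1+ libraries, which overlapped.

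Among 12 mRNAs known to be bound by tristetraprolin, 11 were tested, 9 were called lower in CX3CR1- cells and 1 was called higher, with a median log2FC of -2.69. Tnf was at 414, 443 and 433 in CX3CR1- and at 3138, 3716 and 2652 in CX3CR1+ libraries (-2.86, adjusted p = 4.38e-06). The chemokines Cxcl2 (-3.04) and Ccl3 (-4.85) were lower as well. Il6 was the exception, at 139, 331 and 217 in CX3CR1- against 13.9, 31.3 and 20.7 in CX3CR1+ libraries (3.31, adjusted p = 2.49e-04). Zfp36 and most mRNAs of this list were thus both higher in CX3CR1+ cells. Ier3 stands in this list and in that of early response genes.

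Upstream factors and kinases were examined next. Of 20 genes for SRF, its cofactors, CREB and ATF factors and MAP kinases, 1 was called higher and 1 lower, with a median log2FC of -0.02. The SRF cofactor Mkl2 was the higher one (1.21, adjusted p = 0.0041) and the SRF partner Elk3 the lower one (-1.17, adjusted p = 0.0337), although Elk3 lost its call in all but 1 of the fits without a library. Without CX3CR1- replicate 2, CX3CR1+ replicate 1 or CX3CR1+ replicate 2, 2 genes of this list were called higher. Srf itself had a log2FC of 0.56 (adjusted p = 0.0728).

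Stress genes that often accompany an immediate-early response were compared too. Of 13 heat shock genes, 0 were called by limma in either direction (1 was called higher without CX3CR1- replicate 2), 2 were lower and 1 was higher at an unadjusted p of at most 0.05, and the 2 lower ones also passed the adjusted p, Hspa8 (-0.56, adjusted p = 0.04) and Hsp90aa1 (-0.48, adjusted p = 0.0368). The inducible Hspa1a was at 3010, 3333 and 4282 in CX3CR1- and at 5324, 3171 and 5038 in CX3CR1+ libraries, with a log2FC of -0.33 (95% confidence interval -0.81 to 0.15), and Hspa1b had one of -0.14 (-0.75 to 0.47). Of 6 tested genes of the integrated stress response, 1 was called higher, Vldlr, which varied from 13.9 to 119 between CX3CR1- libraries, and Atf4, the central factor, had a log2FC of 0.09 (adjusted p = 0.75). The median log2FC of the heat shock genes was -0.04.

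**Figure D5:**
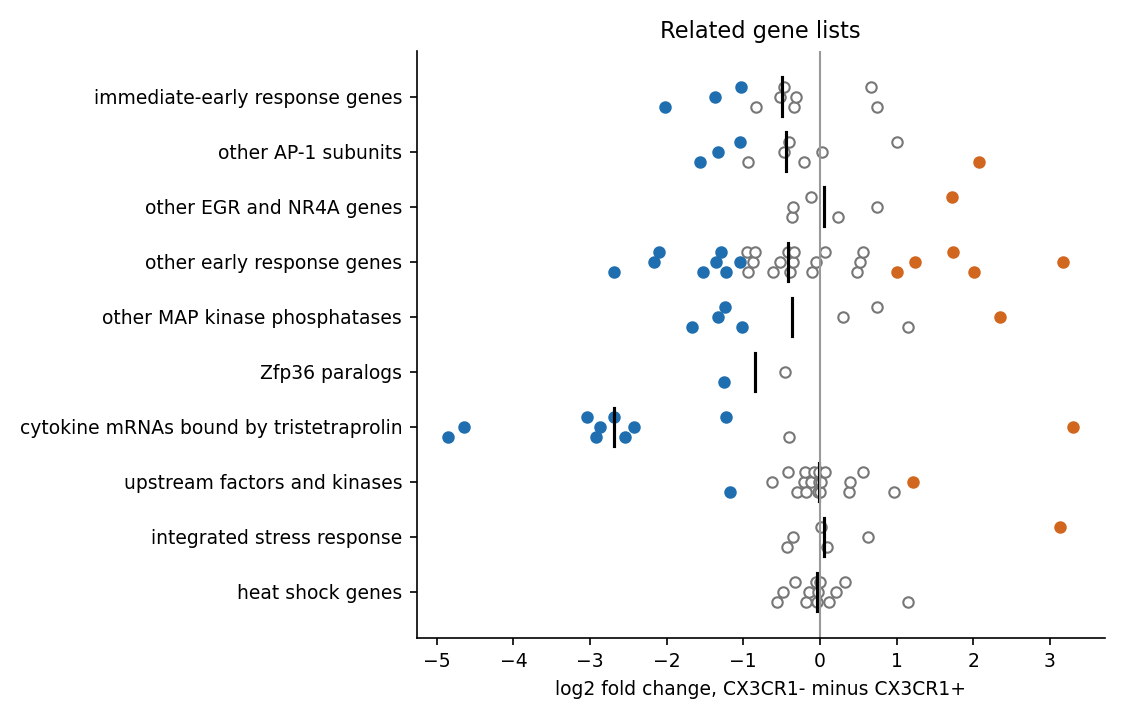
Log2 fold change (CX3CR1- minus CX3CR1+) of each tested gene of the immediate-early response genes and of 9 related lists; orange and blue points are called higher and lower, open points are not called, and vertical black lines are list medians. Points of the mRNAs bound by tristetraprolin lie mostly left of -1 with Il6 on the right, and heat shock genes and upstream factors gather around 0.

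Markers of other cell types moved with the populations. All 9 epithelial markers were called higher in CX3CR1- cells, with a summed normalised value of 16154 to 27565 in CX3CR1- and 29.2 to 53.2 in CX3CR1+ libraries, where Epcam, Krt8, Krt19 and Krt20 were listed at 0 in at least 1 library. All 6 fibroblast markers were called higher, with sums of 4117 to 12168 against 181 to 316. Of 8 dendritic cell markers 7 were called higher, with sums of 3552 to 3907 against 310 to 341, and Itgae was listed at 0 in a CX3CR1+ library. Of 5 B and plasma cell markers 4 were called higher, with sums of 1409 to 3671 against 58.6 to 89.3, and Cd79a was listed at 0 in a CX3CR1+ library. Of 5 endothelial markers 3 were called higher, with sums of 680 to 918 against 319 to 584. Of 6 tested neuron and glia markers 3 were called higher, and so was Kit, a marker of mast cells and of interstitial cells of Cajal. None of the 6 smooth muscle markers was called, nor had any an unadjusted limma p of at most 0.05, with sums of 918 to 2675 in CX3CR1- and 1954 to 2745 in CX3CR1+ libraries. Macrophage markers summed to 6887 to 8042 in CX3CR1- and to 35364 to 40271 in CX3CR1+ libraries. Of 3 monocyte and neutrophil markers, Ccr2 was called higher and Csf3r lower, and the single tested T and NK cell marker was not called. The part of these cell types, and of the share of mitochondrial genes, in the differences of the immediate-early genes was not tested.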

How the data were processed

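RNA from sorted cells was sequenced as 75 bp single reads after TruSeq v2 library preparation, which does not mark strand. The authors pseudoaligned the reads to the mouse transcriptome (mm10, GENCODE release M16) with Kallisto, summed estimates per gene with tximport and normalised them with DESeq2. The deposited values are thus normalised signal and not counts: only 53.5 to 63.1% of values up to 50 steps were whole multiples of the smallest step within 0.01, so that no count test was run. The 17812 genes whose mean over all libraries reached 10 were tested as log2(value + 1) with lmFit and eBayes (trend, two-sided, Benjamini-Hochberg) of limma 3.58.1, run in R 4.3.3. Fold changes on this scale understate those of low genes. Exact permutation tests are two-sided and cannot go below p = 0.1. Confidence intervals are limma's. The test was checked on simulated data.

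Samples were grouped by their titles, and the replicates of each population were numbered in accession order. Lengths, positions and shared 31-mers came from GENCODE release M21 (GRCm38) and promoters from RefSeq (GRCm38.p6). Members and lists were chosen with earlier results of these data known. Named genes are the 10 members, the genes of their families, up to 3 called genes per list and direction with the smallest adjusted p, the markers and the 5 genes most like Fos. Hspa1a, Hspa1b, Hspa8, Hsp90aa1, Srf and Atf4 were named after their values were seen. The alternatives were pseudocounts of 0.5 and 10, no filter, a stricter mean of 50, scaling by median of ratios or by quantiles, totals without mitochondrial genes, no trend, library weights, a block for adjacent library numbers and leaving out each library. Plots were drawn with matplotlib 3.10.9.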

Additional observations from a re-analysis of the deposited data

How the results depend on the processing

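The calls of Atf3 and Zfp36 held under all 16 alternatives, with log2 fold changes between -2.21 and -1.54 and between -1.78 and -1.19. Dusp1 kept an adjusted p under 0.05 in all 16, from -0.94 to -0.66. Junb kept it too, but fell under the fold threshold in 4 of 16, and Fosb kept it in 14 of 16. Quantile normalization shifted the median of all genes by -0.15; under it Fos had a log2 fold change of 0.16 and Nr4a1 one of 0.15, both above 0, Fosb was called higher (1.23, adjusted p = 5.92e-04), so that 1 member was called higher and 2 lower, and 16 genes of the related lists were called lower in place of 25. Leaving mitochondrial genes out of the totals shifted the median by 0.16. Without the fold threshold 1 member was higher. A mean of at least 50 left 1232 genes called higher in place of 2177, since fewer genes were tested. Without one library, 1724 to 2263 genes were called higher and 1011 to 1606 lower, 2 to 3 members were called lower and 0 higher, and 9 to 12 genes of the related lists were called higher and 19 to 26 lower.

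The labels give no replicate number that the populations share and so pair no libraries. Adjacent library numbers do form 3 pairs with 1 library of each population, in which Fos, Jun, Egr1 and Nr4a1 were lower in the CX3CR1- library in 3 of 3. With these pairs as a block, a hint from the numbers and not from the design, the counts of called members did not change, and Jun (adjusted p = 0.019) and Egr1 (adjusted p = 0.0397) came under 0.05 at unchanged log2 fold changes of -0.52 and -0.47; the cause was not tested. The study has 3 libraries per population, which limits what can be seen of differences such as those of Fos and Nr4a1.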
